A study of Homo sapiens with 6 samples.

Results

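The genes described here are 9 of the 60660 genes in the count tables. They make, bind and sense retinoic acid and were chosen by symbol, with earlier results of these data known. They are the retinaldehyde dehydrogenases ALDH1A1, ALDH1A2 and ALDH1A3, the cellular retinoic acid-binding proteins CRABP1 and CRABP2, and the retinaldehyde reductase DHRS3. The others are the retinoic acid receptors RARA, RARB and RARG. RNA-sequencing compared 12Z cells, an immortalised human epithelial line from an endometriosis lesion, after transfection with a control or a targeting siRNA. The 3 control libraries came from cells given a non-targeting siRNA, and the 3 knockdown libraries from cells given 10 nM of the siRNA LINC01133a, which targets the long noncoding RNA LINC01133. Both groups were collected 72 h after transfection, and all 6 libraries came from this single cell line. The knockdown rests on 1 siRNA sequence, so effects of the oligo and of its target cannot be told apart here.

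Cells take up retinol, oxidise it to retinaldehyde, and pass retinaldehyde to the ALDH1A enzymes, which make retinoic acid irreversibly. CRABP2 carries retinoic acid to the nuclear receptors RARA, RARB and RARG, which act as heterodimers with the RXR receptors at short direct repeats in the DNA, while DHRS3 turns retinaldehyde back into retinol. In endometrium, retinoic acid from the stroma is known for inducing HSD17B2, the enzyme that inactivates estradiol, in epithelial cells.

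Of the 9 genes, 8 had enough counts to be tested. Differentially expressed (DE) genes were those with a fold change over 1.5 and an adjusted p under 0.05 in the quasi-likelihood test of edgeR, adjusted by the Benjamini-Hochberg method across the 15155 genes tested. ALDH1A3, CRABP2, DHRS3 and ALDH1A1 were DE and lower in knockdown cells, that is 4 of 8, where 6.43% of all genes tested were DE and lower. None of the 8 was DE and higher, where 5.30% of all genes tested were. By the adjusted p alone, 6 of the 8 were lower (25.0% of all genes tested) and 1, ALDH1A2, was higher (23.3%). In 7 of the 8 the control and knockdown libraries did not overlap, against 57.3% of all genes tested. The median log2 fold change was -0.54 over these 8 genes and 0.003 over all genes tested. Since the 9 genes were chosen with earlier results known, these shares are a description and not a test of the set.

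The targeted RNA was reduced in the knockdown libraries. LINC01133 had 823 ± 12.8 normalized counts in control and 133 ± 4.68 in knockdown cells (SD, n = 3 each). On the log2 scale this was -2.63 (SE 0.0703, adjusted p = 3.45e-11). Normalized counts are read pairs assigned to a gene, scaled to 1 common library size by edgeR's TMM method. The libraries held 29703111 to 34761062 counts on genes in control and 27742562 to 37551194 in knockdown cells. The test behind the adjusted p-values sets the difference between the groups against the spread within them. It covers these 6 libraries, which the study describes as biological replicates. Epithelial markers (KRT7, KRT8, KRT18, KRT19, EPCAM and CDH1) summed to 6694 to 7128 TPM (counts per exon length, scaled to a common total) in control and 4311 to 4432 TPM in knockdown cells, and 4 of these 6 genes were DE and lower. EPCAM was near 0 in both groups, at 0.509 to 0.977 and 0.642 to 1.2 TPM. The lineage markers PAX8, ESR1, PGR and FOXA2 summed to 1.89 to 1.99 and 1.88 to 2.06 TPM, with FOXA2 at 0. Stromal fibroblast markers summed to a high level in both groups, at 4493 to 5018 and 4543 to 4685 TPM, with 0 of 7 DE. COL1A1, COL3A1 and LUM carried most of that sum, while COL1A2 stood at only 12.2 to 20.1 and 12.7 to 13.7 TPM. Immune markers summed to under 1 TPM in every library, with CD3E at 0, and endothelial markers summed to 1.57 to 1.82 and 3.72 to 4.65 TPM, with CDH5 alone DE and higher. In the paper's follow-up assays the loss of CDH1 was seen again, but the reduction of KRT7 and KRT19 was not. The fall of the summed epithelial markers in these libraries ran in the same direction as that of 4 of the 9 genes. Its part in their values was not tested. In bulk libraries, fewer cells of a type and less RNA per cell cannot be told apart.

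Promoter sequences are shown because the receptors bind short repeats in DNA, and because the genes differed widely in their response. Windows from 250 bases before to 50 bases after each annotated start were read from RefSeq (GRCh38.p14). All 9 genes matched, with 17 windows among them. Half-sites were searched on both strands. The spellings searched were AGGTCA as the first form, AGTTCA as the next, GGGTCA as the third and GGTTCA as the last. They may overlap, and a response element was a pair of half-sites in direct repeat with 5 bases between them (DR5) or 2 bases (DR2). The single window with a DR5 was that of RARB, shown with the repeat in capitals. The windows of CRABP2, with its only half-site in capitals, and of ALDH1A3, which had none, belong to the 2 genes that fell most.
RARB, chr3:25428013-25428312, plus strand: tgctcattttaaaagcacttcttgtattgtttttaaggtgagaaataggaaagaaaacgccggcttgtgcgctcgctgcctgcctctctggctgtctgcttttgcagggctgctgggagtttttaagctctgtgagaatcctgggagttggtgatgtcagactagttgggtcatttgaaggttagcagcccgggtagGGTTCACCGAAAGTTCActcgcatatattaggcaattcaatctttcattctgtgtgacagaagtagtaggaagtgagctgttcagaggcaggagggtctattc
CRABP2, chr1:156705735-156706034, minus strand: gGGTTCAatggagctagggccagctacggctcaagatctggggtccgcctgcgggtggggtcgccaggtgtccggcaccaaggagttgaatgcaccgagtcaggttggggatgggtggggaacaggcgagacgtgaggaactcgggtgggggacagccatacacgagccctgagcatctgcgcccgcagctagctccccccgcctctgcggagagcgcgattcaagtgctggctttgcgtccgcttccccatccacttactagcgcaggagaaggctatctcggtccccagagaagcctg
ALDH1A3, chr15:100879581-100879880, plus strand: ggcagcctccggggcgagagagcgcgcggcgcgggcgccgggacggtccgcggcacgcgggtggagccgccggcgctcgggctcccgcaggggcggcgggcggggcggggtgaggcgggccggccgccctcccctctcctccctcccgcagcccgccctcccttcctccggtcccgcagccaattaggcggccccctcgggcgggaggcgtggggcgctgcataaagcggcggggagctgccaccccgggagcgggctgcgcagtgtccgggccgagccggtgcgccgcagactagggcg

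The RARB repeat ran from 25428210 to 25428226, with its first base at position -53 from the start. A DR5 was found in 31 of 35116 RefSeq promoters (0.0883%) and a DR2 in 14 (0.0399%). Windows with at least 1 half-site were common, at 8 of the 17 windows of these genes (47.1%), the RARB window with the DR5 included. Among promoters of the genes tested the share was 32.6%, and among all promoters 38.6%. ALDH1A1, RARG, CRABP1 and ALDH1A3 had no half-site in any window. Among the 4 DE genes, ALDH1A3 and ALDH1A1 thus had none, and CRABP2 and DHRS3 had a half-site in at least 1 window. These letters are a description of 300 bases and say nothing of other parts of the genes.

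The siRNA itself is shown because a short oligo can also bind other RNAs through its seed, bases 2 to 8 from the 5′ end of the guide strand, in capitals.
siRNA LINC01133a guide: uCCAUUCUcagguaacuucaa
The matching 7-base site, AGAATGG, was absent from the 3′ UTRs of all 9 genes, read from the transcript annotated as canonical for each gene. Other transcripts, coding sequences, shorter matches and the sense strand of the siRNA were not searched. Binding of the siRNA to these RNAs was not tested. Over the genes tested, 2144 of 12537 with an annotated 3′ UTR held it (17.1%).

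Synthesis enzymes: ALDH1A3 carried most of the retinaldehyde dehydrogenase RNA of 12Z cells and fell the most of these genes. ALDH1A3 lies on chromosome 15, 100877714 to 100916626, plus strand (GRCh38). Its normalized counts were 46640.4, 48443 and 44160.0 in control and 19836, 19967 and 20097 in knockdown cells. The groups were far apart, and the 3 knockdown libraries lay within a narrow range. Group means were 46414 ± 2150 and 19966 ± 131 (SD, n = 3 each), so 43.0% remained in knockdown cells. ALDH1A3 thus changed by -1.22 on the log2 scale (SE 0.0389, 95% interval -1.30 to -1.13), with an adjusted p of 1.40e-10.

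ALDH1A1, which also oxidises other aldehydes and is widely used as a marker of progenitor cells, fell as well (chromosome 9, 72900671 to 73080442, minus strand). It had 719, 675 and 675 normalized counts in control and 387, 396 and 496 in knockdown cells. All knockdown libraries were below all control libraries, with knockdown replicate 3 closest to them. This left 61.9% of the control mean, at a log2 fold change of -0.70 (SE 0.0845, 95% interval -0.89 to -0.52, adjusted p = 1.63e-05). The interval included falls smaller than 1.5-fold, and without knockdown replicate 3 the log2 fold change was -0.81.

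ALDH1A2, the enzyme that supplies retinoic acid to the early embryo and that is typical of stromal cells in the uterus, did not follow the other two. The gene lies on chromosome 15, 57953424 to 58497866, minus strand. Its normalized counts were 5198, 5154 and 5132 in control and 5562, 5505 and 5727 in knockdown cells. The knockdown libraries were all higher, by a small amount. The log2 fold change was 0.12 (SE 0.0351, 95% interval 0.04 to 0.19, adjusted p = 0.0140), or 108.5% of control, well under the fold cutoff. Without knockdown replicate 3 the adjusted p was 0.0507, with a log2 fold change of 0.10. Genes annotated on the same strand within its bounds held 2.08% as many counts as ALDH1A2, and neighbouring transcripts there are hard to separate.

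**Figure D1:**
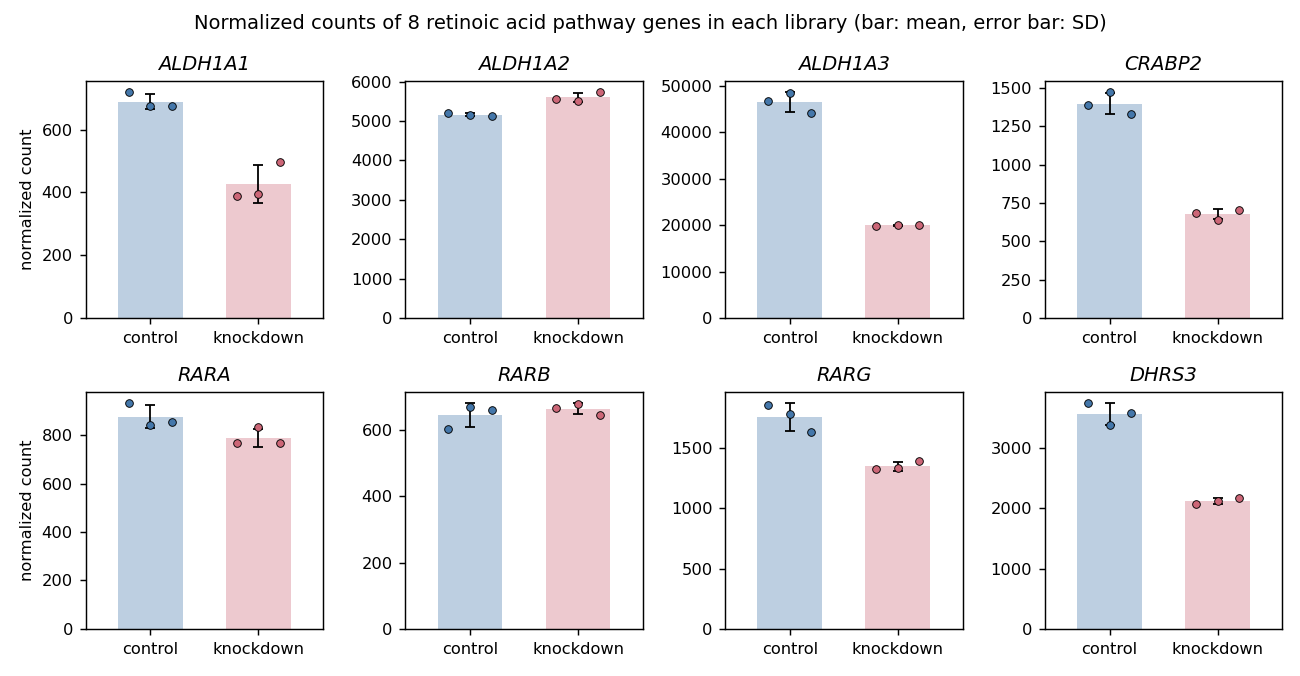
Normalized counts (y axis, linear, from 0) of the 8 genes tested in each of the 3 control and 3 knockdown libraries, with points for libraries, bars for means and error bars for SD. The groups were apart in every gene but RARB, and ALDH1A2 was the single gene with all knockdown libraries above all control libraries.

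Binding proteins: CRABP2 was the second of the strong falls, and CRABP1 was all but undetected. CRABP2, which hands retinoic acid to its receptors (chromosome 1, 156699606 to 156705816, minus strand), had 1389, 1471 and 1332 normalized counts in control and 684, 643 and 707 in knockdown cells. The ranges were well separated. CRABP2 stood at 48.5% of control, or -1.04 on the log2 scale (SE 0.0548, 95% interval -1.16 to -0.93, adjusted p = 1.05e-08). CRABP1, which holds retinoic acid in the cytosol (chromosome 15, 78340353 to 78348225, plus strand), had raw counts of 0, 0 and 1 in control and 0, 1 and 0 in knockdown libraries. It was not tested, and a count of 0 allows up to 3 counts in a library. A difference in CRABP1 within so few counts was not detectable at this depth.

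Receptors: RARG fell modestly, RARA by a margin that depended on the processing, and RARB did not pass the test. RARG, the receptor typical of epithelia such as skin (chromosome 12, 53210567 to 53232980, minus strand), had 1857, 1780 and 1630 normalized counts in control and 1322, 1330 and 1392 in knockdown cells. No knockdown library reached the lowest control library. The difference was -0.38 on the log2 scale (SE 0.0514, 95% interval -0.49 to -0.27, adjusted p = 4.19e-05), or 76.8% of control, which is short of the fold cutoff. 

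RARA, a broadly expressed receptor (chromosome 17, 40309180 to 40357643, plus strand), had 932, 843 and 855 normalized counts in control and 768, 832 and 766 in knockdown cells. The groups did not overlap, but knockdown replicate 2 came close to the control libraries. The log2 fold change was -0.15 (SE 0.0581, 95% interval -0.28 to -0.03, adjusted p = 0.0427). Its adjusted p was under 0.05 in 5 of 13 alternative fits and reached 0.166 without control replicate 1, 0.163 without knockdown replicate 1 and 0.134 without knockdown replicate 3. With library size alone in place of TMM it was 0.223, at a log2 fold change of -0.09.

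RARB is itself a textbook target of retinoic acid, through the repeat printed above. It lies on chromosome 3, 24687887 to 25597932, plus strand. Its normalized counts were 603, 670.2 and 661 in control and 667, 678 and 646 in knockdown cells. The ranges overlapped, and control replicate 1 was the lowest of the 6. The log2 fold change was 0.04 (SE 0.0595, adjusted p = 0.569) with a 95% interval of -0.08 to 0.17, so a change beyond 1.5-fold in either direction lay outside the interval. Without control replicate 1 the value was -0.0037.

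DHRS3, a reductase that draws retinaldehyde away from oxidation and whose own gene is induced by retinoic acid in many cells, fell (chromosome 1, 12567910 to 12618210, minus strand). Its normalized counts were 3739, 3374 and 3573 in control and 2064, 2124 and 2166 in knockdown cells. The gap between the groups was much wider than the range within either. In knockdown cells 59.5% of the control mean was left, a log2 fold change of -0.75 (SE 0.0444, 95% interval -0.85 to -0.66, adjusted p = 2.80e-08). Among the enzymes that use retinaldehyde, ALDH1A3 and ALDH1A1, towards retinoic acid, and DHRS3, towards retinol, were thus lower, and ALDH1A2, towards retinoic acid, was slightly higher.

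**Figure D2:**
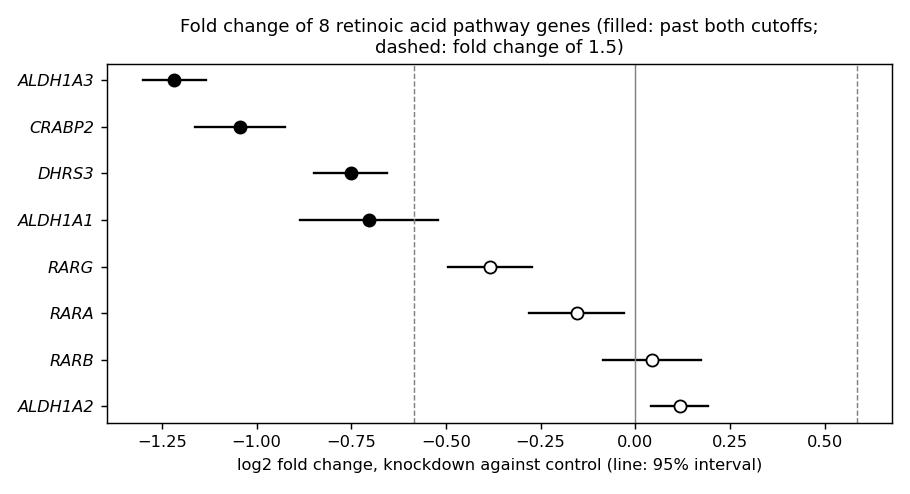
Log2 fold change of knockdown against control (x axis) for the 8 genes tested, with 95% intervals from edgeR as lines and dashed lines at a fold change of 1.5. ALDH1A3, CRABP2, DHRS3 and ALDH1A1 (filled) were past both cutoffs, from -1.22 to -0.70, and the interval of RARB alone included 0.

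Antisense genes overlap some of these loci, so the strand of the counts matters. In the unstranded column, reads that overlap genes on both strands count for neither gene. ALDH1A3 kept 28.5 to 29.6% of its stranded count there, with 2 annotated genes on the other strand, ALDH1A3-AS1 among them. RARA kept 65.6 to 72.1%, with 3 such genes, RARA-AS1 among them. Which of these genes the lost reads overlapped was not tested. The stranded counts of the opposite genes were small, at 216 in all against 196562 for ALDH1A3 and 247 against 4996 for RARA, over 6 libraries. ALDH1A3 was DE and lower in the unstranded column too. For RARA the adjusted p there was 0.122, with a log2 fold change of -0.12.

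Levels of different genes can be compared only per exon length, in TPM. In control cells the order was ALDH1A3 (1164 ± 72.0 TPM, SD, n = 3), CRABP2 (173 ± 11.6), DHRS3 (135 ± 4.71), ALDH1A2 (84.9 ± 1.51), RARG (45.8 ± 3.17), ALDH1A1 (32.4 ± 0.957), RARA (24.7 ± 1.1) and RARB (9.13 ± 0.644). No neighbours in that order overlapped between control libraries. In knockdown cells ALDH1A3 remained first at 501 ± 8.43 TPM, and ALDH1A2 came next at 92.3 ± 2.67 TPM. CRABP2 (83.9 ± 4.41 TPM) and DHRS3 (80.7 ± 2.77 TPM) then overlapped, as did RARA (22.3 ± 1.08 TPM) and ALDH1A1 (20.1 ± 3.04 TPM). RARG stood at 35.2 ± 1.35 TPM and RARB at 9.41 ± 0.186 TPM. With the longest transcript as the length, the control order of DHRS3 (158 TPM), ALDH1A2 (136 TPM) and CRABP2 (132 TPM) was different, and the other places were the same.

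**Figure D3:**
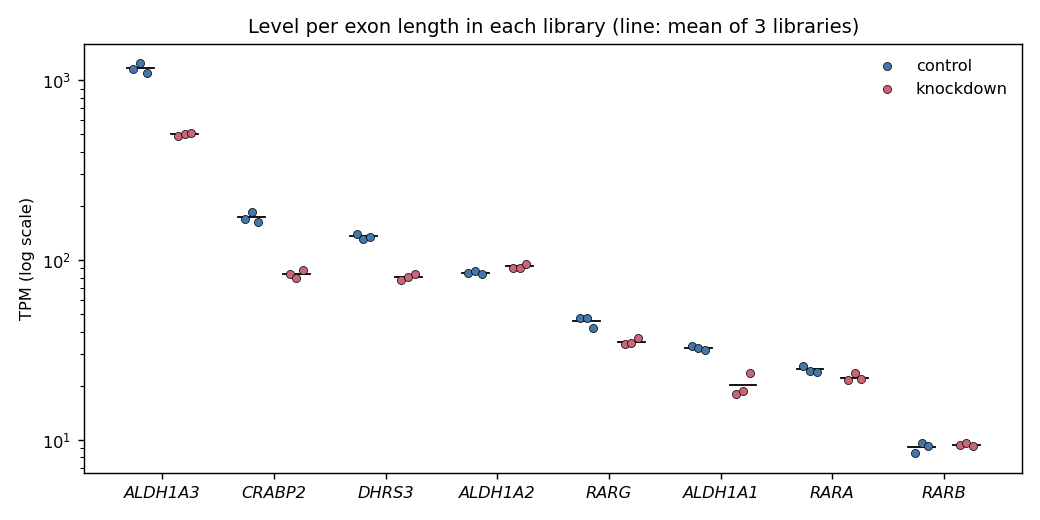
TPM of the 8 detected genes (y axis, log scale) in each control and knockdown library, ordered by control level, with a line at the mean of 3 libraries. ALDH1A3 stood far above the rest in both groups, and CRABP2 and DHRS3 were above ALDH1A2 in control but below it in knockdown libraries.

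Added up, the 3 dehydrogenases gave 1272, 1359 and 1212 TPM in control and 602, 611 and 629 TPM in knockdown cells. The sum thus stood at 47.9% of control, with no test run on it. ALDH1A3 made up 90.8 ± 0.379% of that sum in control and 81.7 ± 0.540% in knockdown cells. The share of ALDH1A2 went from 6.64 ± 0.266% to 15.0 ± 0.160%, and that of ALDH1A1 from 2.54 ± 0.130% to 3.27 ± 0.419%. The larger share of ALDH1A2 stood beside a level that had itself risen little, to 108.5% of control in normalized counts. The receptors summed to 79.6 ± 3.76 TPM in control and 66.9 ± 1.65 TPM in knockdown cells, or 84.0%. RARG was the most abundant of them in both groups, with 57.5 ± 1.31% and 52.7 ± 1.48% of receptor RNA. RARB made up 11.5 ± 1.1% and 14.1 ± 0.395%, and RARA the rest.

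**Figure D4:**
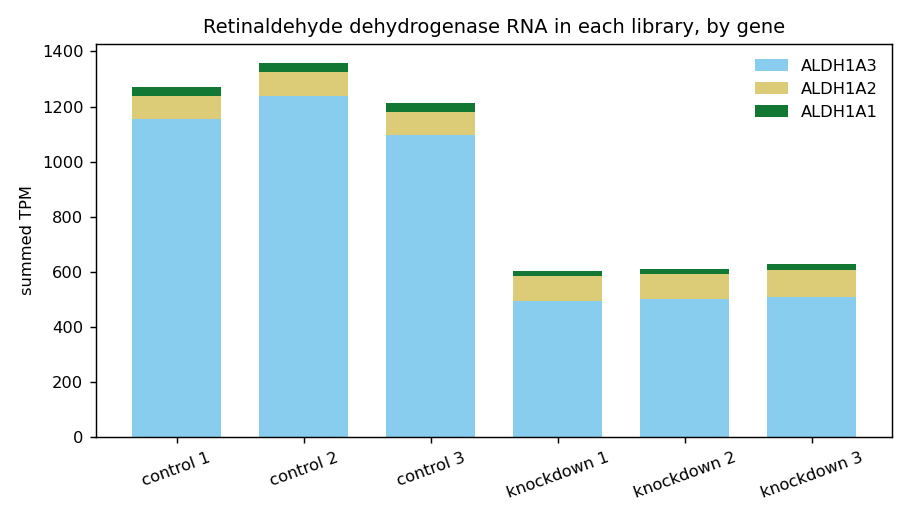
Summed TPM of ALDH1A1, ALDH1A2 and ALDH1A3 (y axis, from 0) in each of the 6 libraries, stacked by gene. The control libraries reached 1212 to 1359 TPM and the knockdown libraries 602 to 629 TPM, and ALDH1A3 was the bulk of every column.

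The 3 genes whose profile over the 6 libraries was nearest to that of ALDH1A3 were LINC01140, SULF2 and CDH2. Nearness was the root mean square difference of log2 library-scaled counts after centring each gene, and it was 0.0408, 0.0416 and 0.0447. SULF2, an extracellular sulfatase that trims heparan sulfate, went from 2580 ± 126 to 1170 ± 25.5 normalized counts. CDH2, which encodes N-cadherin, went from 12806 ± 662 to 5715 ± 194, and the noncoding RNA LINC01140 from 236 ± 9.92 to 104 ± 4.36. In the paper's qRT-PCR, CDH2 RNA also fell with LINC01133a but was unchanged with LINC01133b, a less efficient siRNA. All 3 genes had a log2 fold change between -1.18 and -1.14, close to that of ALDH1A3. They were picked by their values in these same 6 libraries, so that closeness follows from the choice. Of all genes tested, 975 (6.43%) were DE and lower.

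The rest of the pathway was described with 5 lists of other retinoid genes, also chosen with earlier results known. They held 104 genes in all, of which 66 were tested. Among these 66, 10 were DE and lower (6.43% of all genes tested) and 2 DE and higher (5.30% of all genes tested), and the median log2 fold change was -0.14. These counts include 3 low oxidoreductases, described later, that passed the count filter through 1 group only. Retinoid supply and storage had 13 genes, of which 5 were tested, 1 was DE and lower and 0 were DE and higher. STRA6, the receptor that takes up retinol, and RBP4 and LRAT, which carry and store it, had at most 7 counts in any library and were not tested. BCO2, which cleaves carotenoids, had 211, 217 and 183 normalized counts in control and 96.6, 123 and 152 in knockdown cells. Its log2 fold change was -0.74 (SE 0.144, adjusted p = 8.84e-04), and -0.57, short of the fold cutoff, without knockdown replicate 1. RBP7, a cellular retinol-binding protein, was higher by the adjusted p alone (log2 fold change 0.29, adjusted p = 0.00145). SCARB1, a lipoprotein receptor that takes up carotenoids, showed a log2 fold change of -0.07 (adjusted p = 0.185).

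Of the 22 retinol and retinaldehyde oxidoreductases, 12 were tested. Of these, 3 were DE and lower (6.43% of all genes tested) and 1 DE and higher (5.30%). All 4 were low genes. AKR1B10, ALDH8A1 and RDH5 passed the count filter only through the group in which they were high. The filter thus favoured a difference in them, and their values are given as a description. With at least 10 counts required in every library, 1 oxidoreductase was DE. AKR1B10, an aldo-keto reductase that reduces retinaldehyde, had 64.4, 63.1 and 31.1 normalized counts in control and 9.32, 5.83 and 3.40 in knockdown cells (log2 fold change -3.01). ALDH8A1, a related dehydrogenase of retinaldehyde, went from 36.5 ± 4.03 to 10.9 ± 3.31 (log2 fold change -1.77). AKR1C3, which reduces retinaldehyde and steroids, had 28.4, 32.7 and 11.4 against 12.7, 9.71 and 11.3 (log2 fold change -1.08, adjusted p = 0.0274), with overlapping groups. Its adjusted p was between 0.0552 and 0.111 when any library other than control replicate 3 was left out. Both aldo-keto reductases have close paralogs, and reads shared with those were not counted.

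RDH5, a retinol dehydrogenase of the retina, was higher, at 0.947, 4.51 and 8.29 normalized counts in control and 15.3, 14.6 and 15.9 in knockdown cells. Its log2 fold change was 1.74, with 1.22 without control replicate 1 and 2.51 without control replicate 3. The abundant members of the list moved less. ADH5, the class III alcohol dehydrogenase, was lower by the adjusted p but under the fold cutoff (log2 fold change -0.45, adjusted p = 5.26e-07). RDH11 showed a log2 fold change of -0.01 (adjusted p = 0.792), which changed sign with library size alone and without control replicate 2. RDH10, the main retinol dehydrogenase of the embryo, was named for that role after its values were seen. It went from 1003 ± 63.2 to 797 ± 21.6 normalized counts (log2 fold change -0.33, adjusted p = 2.91e-04).

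Retinoic acid breakdown was covered by 6 genes, of which 3 were tested and 1 was DE and lower (6.43% of all genes tested). CYP26A1, the inducible enzyme that clears retinoic acid, had at most 2 counts in any library. CYP26B1, its relative, had 452, 510.3 and 380.3 normalized counts in control and 409, 414 and 419 in knockdown cells. The knockdown libraries lay inside the control range (log2 fold change -0.11, 95% interval -0.31 to 0.09, adjusted p = 0.341), and without control replicate 3 the adjusted p was 0.0401. CYP2S1, which can hydroxylate retinoic acid, fell from 516 ± 37.7 to 238 ± 23.5 normalized counts (log2 fold change -1.12, SE 0.0876, adjusted p = 3.60e-07). CYP1B1 was on this list although it can oxidise both retinol and retinaldehyde, which are steps towards retinoic acid. It showed a log2 fold change of 0.05 (adjusted p = 0.457).

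Of the 22 receptor partners and co-regulators, 19 were tested and 1 was DE and lower, a share close to the 6.43% of all genes tested. NCOA3, a coactivator of nuclear receptors, had 3808, 4189 and 3813 normalized counts in control and 1750, 1702 and 1846 in knockdown cells. The knockdown libraries lay far below the control range. The log2 fold change was -1.16 (SE 0.0483, adjusted p = 1.54e-09). By the adjusted p alone, 8 were lower and 2 higher, where 25.0% and 23.3% of all genes tested were. RXRA and RXRB, the partners of the receptors, were named for that role after their values were seen: RXRA showed a log2 fold change of -0.43 (adjusted p = 3.57e-06) and RXRB of 0.13 (adjusted p = 0.0689). MED1, a Mediator subunit, showed a log2 fold change of 0.01 (adjusted p = 0.827), which became -0.03 without control replicate 1. HDAC3, a deacetylase of the corepressor complexes, had one of 0.06 (adjusted p = 0.197).

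The list of retinoic acid target genes held 47 genes, of which 29 were tested. Of these, 4 were DE and lower (6.43% of all genes tested) and 1 was DE and higher (5.30%). TGM2, a transglutaminase, had 93.7, 114 and 92.2 normalized counts in control and 33.9, 24.3 and 32.9 in knockdown cells (log2 fold change -1.71, SE 0.177, adjusted p = 4.36e-06). RARRES1, a retinoic acid-induced membrane protein, had 1082, 1081 and 1203 against 395, 403 and 504 (log2 fold change -1.38, SE 0.0823, adjusted p = 2.99e-08). In both genes every knockdown library was below the control range. ZFP36L2, an RNA-binding protein that promotes mRNA decay, went from 4832 ± 54.4 to 2669 ± 203 (log2 fold change -0.86, adjusted p = 2.07e-08). PLAAT4, a phospholipase also known as RARRES3, went from 226 ± 34.6 to 142 ± 14.9 (log2 fold change -0.69, adjusted p = 5.82e-04).

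RAI2, the target gene that was DE and higher, went from 67.3 ± 7.13 to 124 ± 1.37 normalized counts (log2 fold change 0.88, SE 0.128, adjusted p = 8.49e-05). By the adjusted p alone, 16 of the 29 target genes were lower (25.0% of all genes tested) and 3 higher (23.3%), and their median log2 fold change was -0.25. The most abundant were GPRC5A, with a log2 fold change of 0.03 (adjusted p = 0.636), and RAI14, with one of -0.08 (adjusted p = 0.142, and 0.0394 without control replicate 1). HSD17B2 had no count in any library, so the estradiol-inactivating response known from endometrial epithelium could not be followed in 12Z cells.

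**Figure D5:**
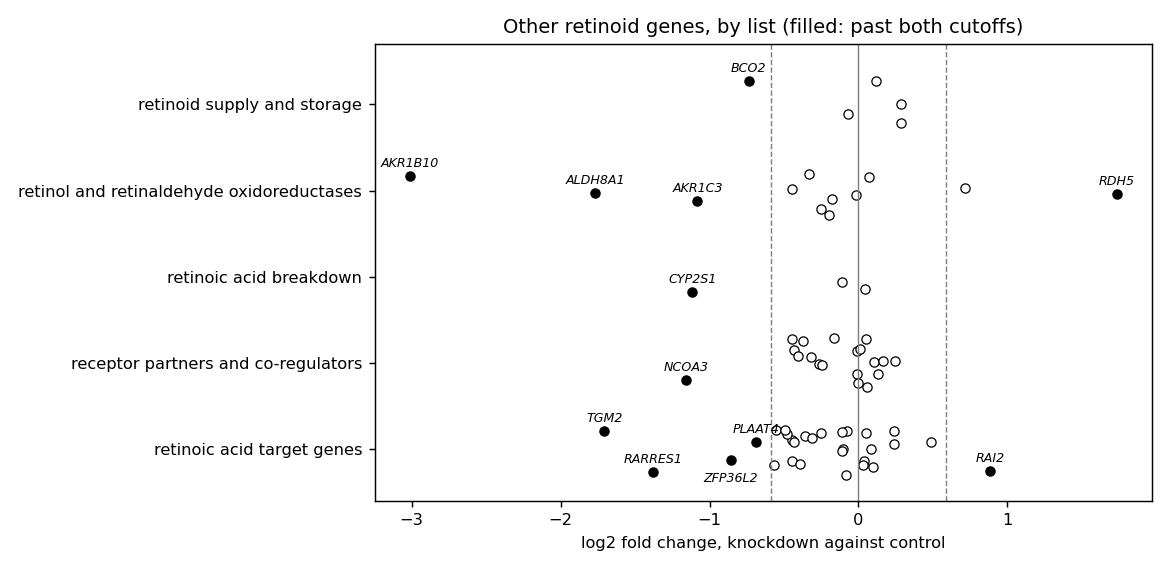
Log2 fold change (x axis) of the tested genes in each of the 5 lists of other retinoid genes, with dashed lines at a fold change of 1.5 and filled, named points for genes past both cutoffs. Named genes lie to the left except RDH5 and RAI2, and most points stand between the dashed lines.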

How the data were processed

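RNA was measured by poly-A RNA-sequencing of 3 control and 3 knockdown libraries. The authors aligned reads with STAR 2.7.6a to GRCh38.p13 with GENCODE 36, kept uniquely mapping reads, and deposited STAR's read counts per gene in 3 columns, unstranded and by strand, without normalization. Which column entered the authors' analysis is not given in the sources used here. The column opposite to read 1 was used, since it held 93.9 to 94.1% of the stranded counts. The study's text and the labels name different library kits.

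Reads not assigned to 1 gene (8.50 to 8.61% in control and 9.04 to 9.44% in knockdown libraries) were left out. Genes were filtered with filterByExpr (minimum count 10), normalized by TMM and tested with edgeR 4.0.16 in R 4.3.3, using glmQLFit and glmQLFTest with Benjamini-Hochberg adjustment. Alternatives were DESeq2 1.42.0, other scalings, filters and columns, a replicate block, and leaving out each library. The code was tested on simulated data. Symbols, lengths and positions came from GENCODE 44, in which 60463 of 60660 genes were matched. TPM used the union of exons. The 9 genes and the lists were chosen with earlier results of these data known. Named genes were the 9 genes, LINC01133, for each list the DE genes (at most 4 per direction, by p) and the 2 most abundant others, and the 3 genes nearest in profile to ALDH1A3. Promoters came from RefSeq, and the siRNA sequence from the study's oligo list.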

Additional observations from a re-analysis of the deposited data

Results flagged for a closer look

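A small difference was flagged in data that no comparison above used. In the column for the strand of read 1, which holds reads antisense to the gene, ALDH1A2 had 44 counts over the 3 knockdown libraries, and 10 to 20 per library against 5 to 12 in control libraries. Scaled to the total of that column (CPM), the lowest knockdown library was above the highest control library, at 5.63 to 9.45 against 2.69 to 5.38. The other 8 genes overlapped between the groups in that column or were at 0 there. Of 13785 tested genes with any count there, 10.9% had all knockdown libraries above all control libraries, and 5.14% had all below. The 1 gene of the 9 is a share close to the former. At ALDH1A2, 11 genes are annotated on the opposite strand, ALDH1A2-AS1 among them. The ALDH1A2 counts there were at most 0.353% of its counts on its own strand, and the difference was not tested. Groups of 3 libraries are too small for the search for single outlying libraries, which was not run.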

How the results depend on the processing

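In 13 alternative fits, the same 4 genes, ALDH1A3, CRABP2, DHRS3 and ALDH1A1, were DE and lower each time, with log2 fold changes of -1.25 to -1.15, -1.08 to -0.98, -0.79 to -0.69 and -0.81 to -0.63. RARG kept an adjusted p under 0.05 in all 13, ALDH1A2 in 12 and RARA in 5. Library size alone moved the median of all genes to 0.07 and gave 1030 DE genes higher and 814 lower, against 803 and 975. The number of oxidoreductases that were DE was 1 with at least 10 counts in every library, where AKR1C3 was the only one of the 4 still tested, and that of supply genes was 0 to 1 over the left-out libraries. Signs changed for RARB (-0.0037 without control replicate 1, up to 0.070 without another library), RDH11 (0.048 with library size alone, -0.035 to 0.0092 over left-out libraries) and MED1 (-0.025 to 0.056 over left-out libraries), all with an adjusted p over 0.05, and the cause was not tested. Same-numbered libraries did not deviate together (correlations of -0.015, 0.0049 and 0.057), and with the replicate block 4 genes were DE and the adjusted p of RARA was 0.0534. With the longest transcript as length, control TPM was 136 for ALDH1A2, 1308 for ALDH1A3, 132 for CRABP2, 26.1 for RARA, 12.9 for RARB, 58.8 for RARG and 158 for DHRS3, and the summed dehydrogenases stood at 50.2% of control. CRABP1 and 38 of the 104 list genes were too low to test at this depth.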

Other observations

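Few promoters held the receptor repeat found in RARB. Of the genes tested, 8 had a RefSeq promoter with a DR5, RARB among them. Of the other 7, 2 were DE and higher in knockdown cells (5.30% of all genes tested) and 0 DE and lower (6.43%). PRSS27, a serine protease, showed a log2 fold change of 0.86 (adjusted p = 0.0116), and PHF8, a histone demethylase, of 0.65 (adjusted p = 7.11e-08). CFLAR, an inhibitor of death receptor signalling, showed a log2 fold change of -0.05 (adjusted p = 0.376) and ATXN1L of -0.03 (adjusted p = 0.498). HROB (0.26, adjusted p = 0.00360), PANK2 (0.11, adjusted p = 0.0240) and CYB5R2 (0.56, adjusted p = 0.0423) had positive log2 fold changes with an adjusted p under 0.05 (23.3% of all genes tested were higher by that measure) but were short of the fold cutoff. No test was run on this group, which was named after its values were seen.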
